A study of Mus musculus with 8 samples.

Results

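The genes described here are the 4 teneurins (*Tenm1* to *Tenm4*), the 3 latrophilins (*Adgrl1* to *Adgrl3*) and the 3 FLRT genes (*Flrt1* to *Flrt3*), 10 genes in all, taken by symbol from the 55523 entries of a table of RNA-sequencing counts from mouse pituitary gonadotropes. All 10 passed the filter on low counts and were among the 20152 genes tested. The study isolated gonadotropes, the cells that make luteinizing hormone and follicle-stimulating hormone, and asked which of their genes depend on the nuclear receptor NR5A1. The cells came from 4 female and 4 male samples of Ad4BP-BAC-EGFP mice, sorted for EGFP, and every sample carried the same transgene, which marks cells by the *Nr5a1* (Ad4BP) gene on a bacterial artificial chromosome and not by a gonadotropin. The age of these mice and the number pooled in a sample are not given in the sources used here. The comparison is between the sexes, with male replicate 1 shown apart, as the study left it out of its own comparisons.

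Teneurins are large cell-surface proteins that bind latrophilins on a neighbouring cell. Latrophilins are adhesion G protein-coupled receptors, and they also bind FLRT proteins, whose leucine-rich repeats form a second contact and which bind UNC5 receptors as well. In the brain these 3 families join pre- and postsynaptic membranes, and the end of each teneurin resembles a peptide hormone, called a teneurin C-terminal associated peptide. In the pituitary gland, endocrine cells of a type are joined in networks by contacts between them.

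The 8 samples held from 18774578 to 31302588 counts each, and 3 counts, taken as the smallest value that can be read, equal 0.0918 to 0.147 CPM (counts relative to the library size, which was corrected with TMM factors). This floor covers counting error only, since PCR copies of a molecule are counted as separate reads. The sorted cells held the gonadotrope transcripts. *Lhb* was between 4160 and 9540 CPM in all 8 samples, and *Nr5a1* was between 863 and 1260 CPM in females and between 590 and 794 CPM in male replicates 2 to 4. Male replicate 1 stood apart with 16.4 CPM of *Nr5a1*, the gene whose regulatory DNA drives the sorting marker, beside 9390 CPM of *Lhb*. All samples also held transcripts of other cells. *Gh*, the growth hormone gene, was between 12400 and 58200 CPM in females, from 64400 to 144000 CPM in male replicates 2 to 4, with 30300 CPM in male replicate 1. The summed CPM of 5 stem-cell markers was 309 to 547 in females, 253 to 296 in male replicates 2 to 4 and 464 in male replicate 1. Of the 42 marker genes listed for 8 cell types, 2 (*Adgre1* and *Nkx2-1*) were at 0 counts in at least 1 sample.

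*Tenm2* was the member that differed between the sexes, at 81.9 CPM in females and 6.53 CPM in males. *Tenm3* and *Adgrl3* were also higher in all 4 females than in male replicates 2 to 4, but their differences did not pass edgeR's quasi-likelihood test. Both passed in DESeq2 (adjusted p = 0.00849 and 0.00619), which called 11.7% of all genes. *Tenm4* varied more than 8-fold among samples of the same sex, and *Adgrl2* was almost missing from a single female sample. The remaining members overlapped between the sexes. Of the 10 members, 1 passed the test and was higher in females, and 0 passed as higher in males. Among all genes tested, 2.34% passed, 1.35% as higher in females and 0.983% as higher in males. The sexes had no overlap in 3 members, where 22.5% of all genes had none. All 3 were higher in females, a direction without overlap that 10.9% of all genes showed. The log2 fold change (male over female) was under 0 in 7 of 10 members and in 52.1% of all genes, and the median was -0.08 over the members and -0.03 over all genes. With male replicate 1 included, these medians were 0.08 and 0.03, and the sign turned for *Tenm4*, *Adgrl1* and *Flrt2*. The genes were selected on their families, at a time when their log2 fold changes and adjusted p between the sexes were known, so these counts and the tests below describe them and are no independent evidence.

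**Figure D1:**
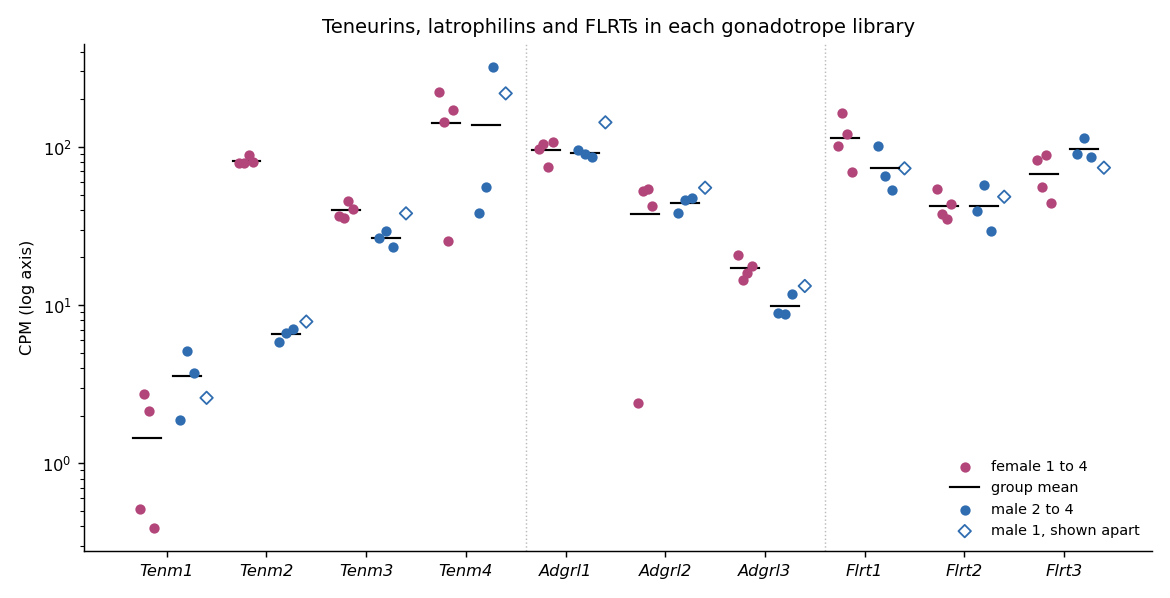
CPM of the 10 members (log axis) in each library, with female replicates 1 to 4 and male replicates 2 to 4 as filled points, their means as bars, and male replicate 1 as an open diamond. *Tenm2* lies at 79.1 to 88.6 CPM in females and at 5.87 to 7.06 CPM in male replicates 2 to 4, whereas *Tenm4* spreads from 25.3 to 222 CPM within the females.

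Short stretches of the *Tenm2* and *Tenm4* genes are shown because *Tenm2* differed most between the sexes and *Tenm4* varied widely within both. The sequences are 250 bases upstream of start sites in RefSeq (GRCm38.p6), and their position was read against the GENCODE annotation of the same build. The *Tenm2* stretch, chr11:36944242-36944491 on the minus strand, lies 292 kb inside the annotated gene, overlaps no exon and ends where exon 3 of the transcript *Tenm2*-202 and exon 4 of *Tenm2*-207 begin. It is therefore intronic for those transcripts, and its last letters, AG, are in capitals. The first *Tenm4* stretch, chr7:96170994-96171243 on the plus strand, ends 2 bases before the annotated gene start. The second, chr7:96211421-96211670, lies 40.4 kb inside the gene, right before the first exon of *Tenm4*-202. In the *Tenm4* stretches the capitals mark the androgen receptor core AGAACA.
Tenm2, chr11:36944242-36944491: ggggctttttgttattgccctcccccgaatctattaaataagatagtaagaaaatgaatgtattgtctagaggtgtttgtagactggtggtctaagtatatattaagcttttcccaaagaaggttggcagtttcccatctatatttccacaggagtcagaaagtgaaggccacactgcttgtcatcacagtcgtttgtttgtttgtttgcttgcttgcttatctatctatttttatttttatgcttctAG
Tenm4, chr7:96170994-96171243: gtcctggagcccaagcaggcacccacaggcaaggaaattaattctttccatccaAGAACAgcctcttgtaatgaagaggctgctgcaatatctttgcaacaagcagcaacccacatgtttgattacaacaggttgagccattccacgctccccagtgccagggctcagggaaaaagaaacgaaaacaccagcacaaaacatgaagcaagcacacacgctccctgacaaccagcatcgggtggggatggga
Tenm4, chr7:96211421-96211670: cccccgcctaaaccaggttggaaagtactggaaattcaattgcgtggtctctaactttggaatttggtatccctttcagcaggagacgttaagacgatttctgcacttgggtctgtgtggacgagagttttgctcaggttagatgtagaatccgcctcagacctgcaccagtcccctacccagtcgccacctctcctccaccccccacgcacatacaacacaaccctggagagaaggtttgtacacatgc

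The patterns searched, on both strands, were the NR5A1 site CAAGGTCA, the nuclear receptor core AGGTCA, which is contained in it, the androgen receptor core AGAACA and the TATA box TATAAA. Of the 10 members, 9 had an entry and *Flrt1* had none. Among the 32841 windows of all genes, CAAGGTCA was present in 1.33%, AGGTCA in 14%, AGAACA in 16.1% and TATAAA in 12.4%. No window of a member held CAAGGTCA. The first *Tenm4* stretch held AGAACA once, at position -196 from the RefSeq start, and the *Tenm2* stretch held none of the 4 patterns. The *Tenm1* window, which lies 154 kb inside its gene and overlaps an exon, held AGGTCA at -99, AGAACA at -71 and TATAAA at 4 positions. *Adgrl2* held TATAAA at -53 and 1 window of *Adgrl3* held it at -28, and the windows of the other members held no match. A match describes the letters alone, and no match says only that these letters are not in that window. The *Tenm2* stretch, which is intronic for the transcripts named above, had 2 CG pairs, against a median of 6 over all windows. The 2 *Tenm4* stretches had 4 and 8.

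Among the teneurins, *Tenm2* (ENSMUSG00000049336.16, chr11:36006656-37235964, minus strand) encodes teneurin-2, the family member known as a high-affinity partner of latrophilin-1. Its level was 79.1, 79.5, 88.6 and 80.5 CPM in female replicates 1 to 4, from 1621 to 2894 counts each. It was 5.87, 6.67 and 7.06 CPM in male replicates 2 to 4, from 151 to 178 counts each, and 7.86 CPM in male replicate 1. The lowest female was therefore above every male sample, male replicate 1 included. The mean was 81.9 ± 4.47 CPM for females (SD, n = 4) and 6.53 ± 0.609 CPM for males (SD, n = 3), a ratio of 12.5. In edgeR's quasi-likelihood test the log2 fold change was -3.67 (SE 0.15), with a Benjamini-Hochberg adjusted p of 0.00044. *Tenm2* had the 2nd smallest p of the 20152 genes, and 167 genes had a lower log2 fold change. With male replicate 1 included, edgeR gave -3.58 with an adjusted p of 0.00032. Its females were also close to each other. The highest female was 1.12 times the lowest, and 96.8% of the 10365 genes with a female mean of at least 10 CPM had a ratio at least as large.

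Sorted cells of a bulk sample do not tell fewer cells of a type from less RNA per cell, and the levels here are those of all sorted cells together. The stem-cell marker *Sox9* was also lower in males (edgeR log2 fold change -1.02, SE 0.18, adjusted p = 0.0417), and *Lcn2* of the same list was higher (2.13, SE 0.37, edgeR adjusted p = 0.0417). In male replicate 1, *Sox9* was at 238 CPM, inside the female range of 195 to 304, while *Tenm2* was at 7.86 CPM. The summed stem-cell markers were higher in females than in male replicates 2 to 4 without overlap, as were the summed stromal markers (114 to 167 CPM against 104 to 113 CPM, with 107 CPM in male replicate 1), and the posterior pituitary markers were 26.9 to 41.6 CPM in females and 24.3 to 32.3 CPM in those males. The summed gonadotrope markers were higher in male replicates 2 to 4 (67400 to 76500 CPM) than in females (21500 to 34800 CPM), as was *Fshb* (log2 fold change 3.13, SE 0.56, edgeR adjusted p = 0.0449). *Cga* and *Fshb* made up most of that sum. *Lhb*, *Cga* and *Gnrhr* overlapped between the sexes, and *Nr5a1* was lower in those males without overlap (log2 fold change -0.61, SE 0.18, edgeR adjusted p = 0.130). The summed erythroid markers were 184 to 579 CPM in females, 80.6 to 224 CPM in male replicates 2 to 4, with 50.2 CPM in male replicate 1, and among them *Hbb-bs*, a globin gene, was lower in all 4 males (19.0 to 52.9 CPM) than in any female (62.8 to 216 CPM). The summed markers of other endocrine cells were 36500 to 98800 CPM in females and 93100 to 189000 CPM in those males, and of that list *Pou1f1*, a factor of the growth hormone, prolactin and thyrotropin lineages, was higher in males (1.96, SE 0.37, edgeR adjusted p = 0.0494). *Gh* (1.14, SE 0.53, edgeR adjusted p = 0.289) and *Tshb* (2.35, SE 0.46, edgeR adjusted p = 0.0525) did not overlap, with the higher values in male replicates 2 to 4. The part of the cell mixture in the level of any member was not tested.

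*Tenm3* (ENSMUSG00000031561.16, chr8:48227682-48843951, minus strand) encodes teneurin-3, which guides the matching of neurons in the visual system and hippocampus. It was 36.6, 35.7, 45.6 and 40.6 CPM in female replicates 1 to 4, and 26.6, 29.6 and 23.3 CPM in male replicates 2 to 4. These groups did not overlap, but male replicate 1, at 38.0 CPM, lay inside the female range. The means were 39.6 ± 4.52 CPM (SD, n = 4) and 26.5 ± 3.10 CPM (SD, n = 3), with a log2 fold change of -0.60 (SE 0.16) that did not pass edgeR's quasi-likelihood test (adjusted p = 0.0959).

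*Tenm4* (ENSMUSG00000048078.16, chr7:96171246-96911093, plus strand) encodes teneurin-4, which is needed for myelination in mice. Its values were 222, 144, 25.3 and 172 CPM in female replicates 1 to 4, and 38.1, 55.4 and 320 CPM in male replicates 2 to 4. Female replicate 3 and male replicates 2 and 3 were low and the other samples high, so that the sexes overlapped over nearly their whole range. Male replicate 1, at 218 CPM, was among the high samples. The low values are not those of a gene at its floor, since the lowest rested on 827 counts. The highest female was 8.78 times the lowest and the highest male 8.41 times the lowest, ratios reached by 8.04% and 5.72% of genes with a mean of at least 10 CPM. The log2 fold change was -0.06 (SE 0.91, edgeR adjusted p = 0.982), and it was -1.62 without male replicate 4 and 0.39 without male replicate 2, so the direction rests on single samples.

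The genes with the profile nearest to that of *Tenm4* were *Mapt*, *Hexdc* and *Prrx1*. Likeness was the mean absolute difference of centred log2(CPM + 1) values over the 7 samples, searched among 9783 genes, and it was 0.30 for *Mapt*, 0.48 for *Hexdc* and 0.52 for *Prrx1*. *Mapt*, which encodes the microtubule protein tau, was 38.8, 20.4, 4.68 and 40.6 CPM in female replicates 1 to 4 and 6.45, 4.64 and 52.6 CPM in male replicates 2 to 4. It was low in the same 3 samples as *Tenm4*. In male replicate 1, which the search did not use, *Mapt* was at 72 CPM, above the other 7 samples. These profiles were picked as the nearest of many, so their likeness is a description and carries no p.

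**Figure D2:**
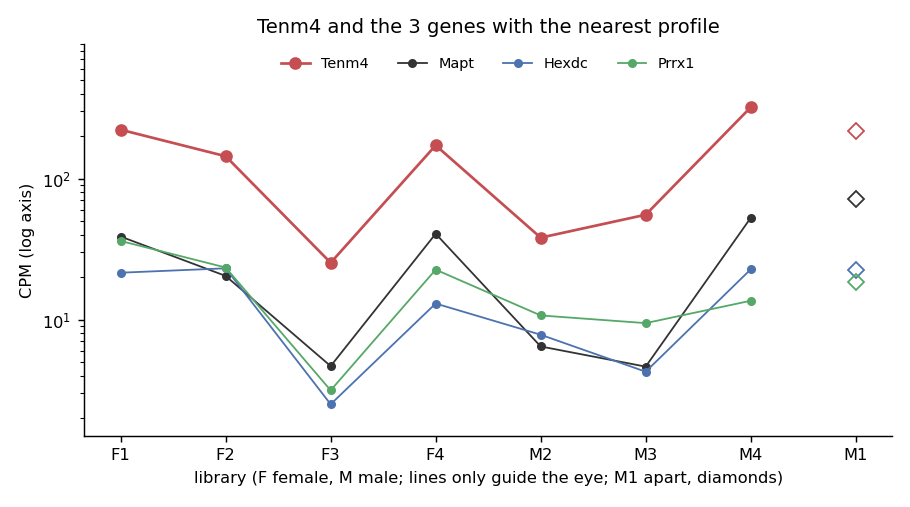
CPM (log axis) of *Tenm4* and the 3 genes with the nearest profile in each library (F, female; M, male), with lines that only guide the eye and male replicate 1 apart as diamonds. *Tenm4* and *Mapt* are low together in female replicate 3 (25.3 and 4.68 CPM) and male replicates 2 and 3.

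*Tenm1* (ENSMUSG00000016150.15, chrX:42527866-43429126, minus strand) encodes teneurin-1, the X-linked member. It had few counts, at 0.514, 2.75, 2.14 and 0.390 CPM in female replicates 1 to 4, which are 12, 56, 70 and 9 counts. In male replicates 2 to 4 it was 1.87, 5.09 and 3.72 CPM, and in male replicate 1 it was 2.59 CPM. The sexes overlapped, and the log2 fold change of 1.27 (SE 0.74) did not pass edgeR's quasi-likelihood test (adjusted p = 0.405).

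Per length, *Tenm2* and *Tenm4* had the highest means of the teneurins in females. On the scale of CPM per kb of exons, *Tenm2* was at 7.14 ± 0.389, *Tenm4* at 6.71 ± 3.98, *Tenm3* at 3.87 ± 0.442 and *Tenm1* at 0.0816 ± 0.0664 (SD, n = 4). *Tenm2* and *Tenm4* did not differ beyond their spread, and *Tenm3* was below *Tenm2* in every female. In female replicate 3, *Tenm4* was at 1.2 CPM per kb, below *Tenm3* at 4.46. With the longest coding transcript as the length in place of the joined exons, a choice made after seeing the data, *Tenm4* came before *Tenm2* in the female means (10.7 and 8.27 CPM per kb). In male replicates 2 to 4 the order of means was *Tenm4* at 6.56 ± 7.52, *Tenm3* at 2.59 ± 0.303, *Tenm2* at 0.569 ± 0.0531 and *Tenm1* at 0.201 ± 0.0913 CPM per kb (SD, n = 3), with *Tenm4* below *Tenm3* in male replicates 2 and 3. With the longest coding transcript, *Tenm4* was above *Tenm3* in male replicate 3 (4.21 and 3.3 CPM per kb). It stayed below *Tenm3* in male replicate 2 (2.89 and 2.97 CPM per kb). Without male replicate 4, the male mean of *Tenm4* fell from 138 to 46.8 CPM. Among 20050 genes ranked per length, *Tenm2* stood at percentile 71.0 in females and 19.1 in males. Its share of the summed teneurin level per kb was 32.7% to 57.2% in females, 3.37% to 10.2% in male replicates 2 to 4 and 4.58% in male replicate 1. The share of *Tenm4* ran from 8.89% to 50.2% in females and from 36.0% to 83.0% in those males, which overlap. The sum of the 4 teneurins was 13.5 to 21.1 CPM per kb in females and 5.03, 6.40 and 18.3 in male replicates 2 to 4, where the high value is the sample with high *Tenm4*.

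**Figure D3:**
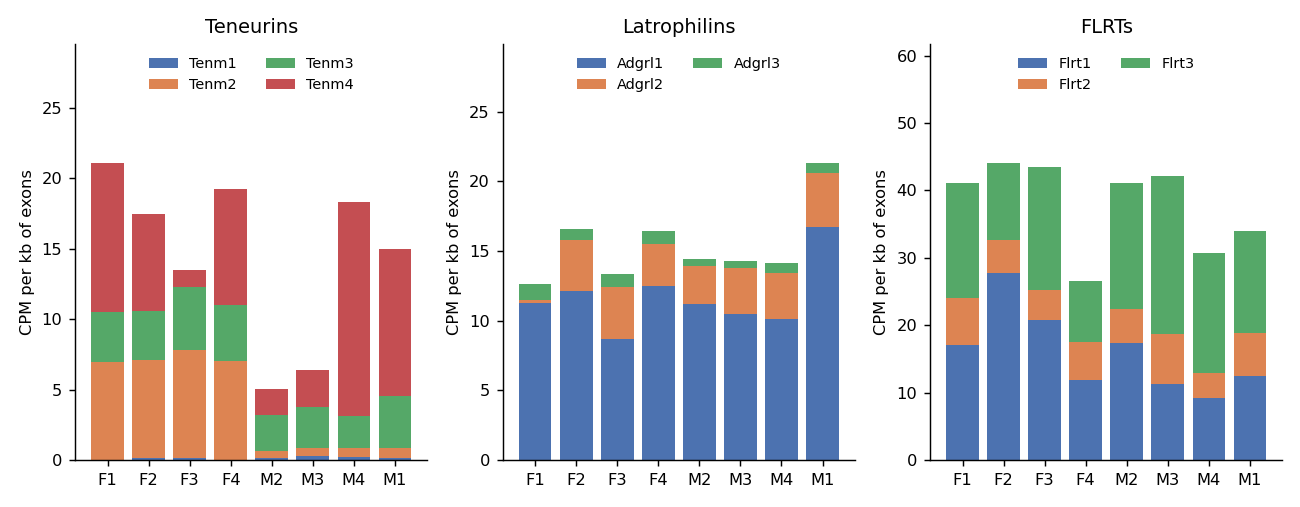
Stacked CPM per kb of exons of the teneurins, latrophilins and FLRT genes in each library (F, female; M, male; M1 last). The *Tenm2* block makes up 32.7% to 57.2% of the female teneurin bars and at most 10.2% of those of males, and *Adgrl1* makes up at least 64.9% of every latrophilin bar on this length.

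Among the latrophilins, *Adgrl1* was the most abundant per length in all 8 samples, and the family sum differed little between the sexes. *Adgrl1* (ENSMUSG00000013033.16, chr8:83900105-83941954, plus strand) encodes latrophilin-1, the receptor of the spider toxin alpha-latrotoxin. It was 96.8, 104, 74.3 and 107 CPM in female replicates 1 to 4 and 96.1, 89.9 and 86.8 CPM in male replicates 2 to 4. The sexes overlapped, with a log2 fold change of -0.10 (SE 0.17, edgeR adjusted p = 0.816). Male replicate 1, at 143 CPM, was above all the other samples. *Adgrl1* made up 64.9% to 89.5% of the summed latrophilin level per kb in females and 71.6% to 77.8% in male replicates 2 to 4. With the longest coding transcript as the length these shares were lower, at 44.6% to 77.3% and 52.5% to 60.5%, and *Adgrl1* was still the first latrophilin in all 8 samples. The sum itself was 12.6 to 16.6 CPM per kb in females, 14.1 to 14.4 in those males and 21.3 in male replicate 1. The genes nearest to *Adgrl1* in profile, by the measure used for *Tenm4*, were *Ppip5k2* (0.04), *Dcun1d3* (0.05) and *Dnal4* (0.06).

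*Adgrl2* (ENSMUSG00000028184.12, chr3:148815583-148990555, minus strand) encodes latrophilin-2, a postsynaptic latrophilin of the hippocampus. It was 52.5, 53.8 and 42.3 CPM in female replicates 2 to 4, but 2.40 CPM, or 56 counts, in female replicate 1. In male replicates 2 to 4 it was 38.4, 46.5 and 47.5 CPM, and in male replicate 1 it was 55.2 CPM. Female replicate 1 was thus 17.6-fold below the lowest of the other females, whose mean was 49.5 ± 6.33 CPM (SD, n = 3), and the other 7 samples lay between 38.4 and 55.2 CPM. Drops of this kind were counted over all genes in the female libraries. Of the genes with at least 10 CPM in the other samples of the sex, the share at least 8-fold below the lowest of them was 1.42% in female replicate 1 and 0.977% to 1.32% in female replicates 2 to 4. With all 7 samples the log2 fold change was 0.20 (SE 0.82, edgeR adjusted p = 0.931), and without female replicate 1 it was -0.17.

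*Adgrl3* (ENSMUSG00000037605.16, chr5:81020138-81825133, plus strand) encodes latrophilin-3, whose human gene has been linked to attention deficit hyperactivity disorder. It was 20.6, 14.4, 16.0 and 17.6 CPM in female replicates 1 to 4 and 8.94, 8.80 and 11.8 CPM in male replicates 2 to 4. The groups did not overlap, and male replicate 1, at 13.2 CPM, lay between them. The log2 fold change was -0.82 (SE 0.20) and did not pass edgeR's quasi-likelihood test (adjusted p = 0.0800). Per length, *Adgrl3* was the lowest latrophilin in males (0.555 ± 0.0965 CPM per kb, SD, n = 3) and also by its mean in females (0.966 ± 0.149, SD, n = 4), although in female replicate 1 *Adgrl2* was lower still, at 0.169 CPM per kb.

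None of the FLRT genes differed between the sexes past the test, and the sum of their levels per kb was higher than that of the latrophilins in every sample. *Flrt1* (ENSMUSG00000047787.8, chr19:7092001-7105729, minus strand) was 101, 163, 121 and 69.8 CPM in female replicates 1 to 4, 102, 65.7 and 53.6 CPM in male replicates 2 to 4, with 73.2 CPM in male replicate 1. *Flrt3* (ENSMUSG00000051379.12, chr2:140650914-140671469, minus strand), whose protein is a main partner of latrophilin-3 and of FGF receptors, was 82.9, 55.6, 89.0 and 43.9 CPM in the females, 90.7, 114 and 86.1 CPM in male replicates 2 to 4, with 73.9 CPM in male replicate 1. *Flrt2* (ENSMUSG00000047414.6, chr12:95692226-95785215, plus strand), known from heart and cortex development, was 54.0, 37.8, 34.8 and 43.8 CPM in the females, 39.1, 57.8 and 29.5 CPM in male replicates 2 to 4, with 48.4 CPM in male replicate 1. All 3 overlapped between the sexes. The log2 fold change was -0.65 (SE 0.34, edgeR adjusted p = 0.354) for *Flrt1*, 0.49 (SE 0.27, edgeR adjusted p = 0.367) for *Flrt3* and -0.04 (SE 0.27, edgeR adjusted p = 0.961) for *Flrt2*.

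The mean level per kb put *Flrt1* first in females, at 19.4 ± 6.69 CPM per kb, before *Flrt3* at 13.9 ± 4.44 and *Flrt2* at 5.52 ± 1.10 (SD, n = 4). In male replicates 2 to 4, *Flrt3* came first at 19.9 ± 3.09 CPM per kb, before *Flrt1* at 12.6 ± 4.28 and *Flrt2* at 5.46 ± 1.86 (SD, n = 3). The spread of *Flrt1* and *Flrt3* overlapped in females, where *Flrt1* was only slightly above *Flrt3* in replicate 1, and *Flrt3* exceeded *Flrt1* in all 4 males. As a share of the summed FLRT level per kb, *Flrt3* made up 25.9% to 42.1% in females, 45.3% to 57.7% in male replicates 2 to 4 and 44.7% in male replicate 1. The share of *Flrt1* was 41.6% to 63.1% in females, 26.5% to 42.4% in those males and 36.8% in male replicate 1. The shares of *Flrt3* do not overlap between the sexes, and those of *Flrt1* overlap between 41.6% and 42.4%. On the longest coding transcript, a length chosen after seeing the data, the female means were 19.4 (*Flrt1*) and 17.1 (*Flrt3*) CPM per kb. There *Flrt3* was above *Flrt1* in female replicate 1 (20.9 and 17.1 CPM per kb) and female replicate 3 (22.4 and 20.7). The order of these 2 genes within females thus depends on the length used. The nearest profiles to *Flrt1* were those of *Mknk1* (0.18), *AC109619.1* (0.18) and *Cbln1* (0.19).

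**Figure D4:**
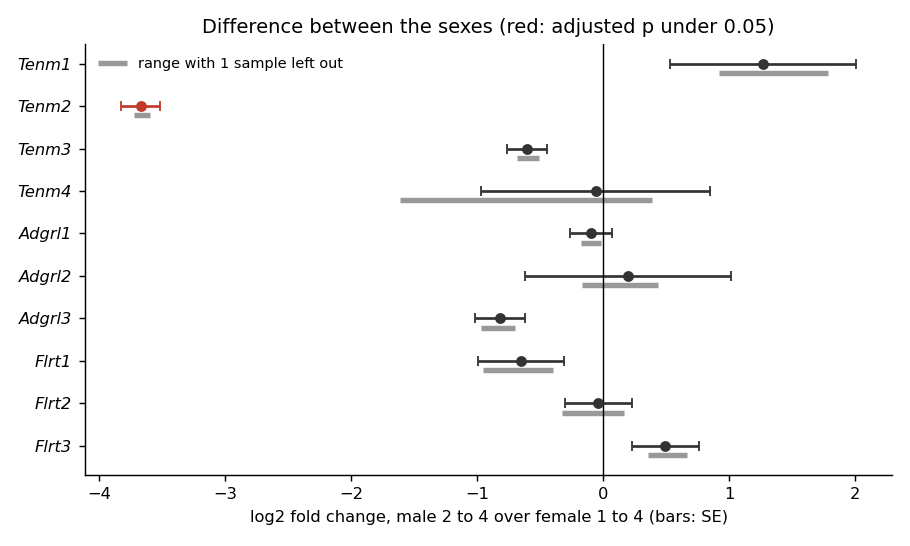
Log2 fold change of each member, male replicates 2 to 4 over female replicates 1 to 4 from edgeR, with bars for the SE and grey strips for the range when 1 sample was left out. *Tenm2*, at -3.67, is far from 0 with a narrow strip, and the strip of *Tenm4* reaches from -1.62 to 0.39.

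Male replicate 1 was above male replicates 2 to 4 in 5 members (*Tenm2*, *Tenm3*, *Adgrl1*, *Adgrl2* and *Adgrl3*), inside their range in 4 and below it in 1 (*Flrt3*). Against the females it was inside in 6, below in *Tenm2* and *Adgrl3*, and above in *Adgrl1* and *Adgrl2*.

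The known partners outside the 3 families were examined with the same fit. Of the 6 receptors and co-receptors of FLRT proteins, 1 passed edgeR's test and was lower in males, where 2.34% of all genes passed. DESeq2 called 3 of them, 1 higher in males, where it called 11.7% of all genes. The edgeR call was *Unc5d*, an UNC5 netrin receptor that binds FLRT2, at 7.88, 16.1, 16.3 and 9.35 CPM in female replicates 1 to 4 and 3.42, 2.58 and 2.89 CPM in male replicates 2 to 4, with 7.07 CPM in male replicate 1. All 4 females were above all 4 males. The log2 fold change was -2.09 (SE 0.33, edgeR adjusted p = 0.0358), and with 1 sample left out the adjusted p from edgeR ranged from 0.0411 to 0.134, past the threshold only without female replicate 1. With male replicate 1 included it was 0.178. *Fgfr1*, the list's gene with the highest mean, was 13.5, 127, 137 and 105 CPM in female replicates 1 to 4 and 79.2, 5.24 and 69.6 CPM in male replicates 2 to 4. Its log2 fold change was -0.92 (SE 0.99, edgeR adjusted p = 0.687), with female replicate 1 and male replicate 3 far below the others compared, as was male replicate 1 at 15.6 CPM.

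Of the other partners of latrophilins (among them contactin-6 and the SHANK scaffolds), 5 of 7 genes could be tested and 0 passed edgeR's test, with 1 at an unadjusted p under 0.05, as for 4009 of all 20152 genes, and 1 past the threshold by DESeq2, as for 11.7% of all genes. *Nrxn2* and *Cntn6* did not reach the filter. Of the 4 proteins tied to teneurins inside or beside the cell, 0 passed in edgeR, 0 at an unadjusted p under 0.05 and 0 by DESeq2. Their most abundant gene, *Dag1* (dystroglycan), had a log2 fold change of 0.01 (SE 0.15).

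Other adhesion G protein-coupled receptors served as a comparison for the latrophilins. Of 27 listed, 20 were tested, and DESeq2 called 3 of them, 2 higher in males, where it called 11.7% of all genes. In edgeR, where 2.34% of all genes passed, 1 did, *Adgra2* (GPR124), a coreceptor of WNT7 signalling in brain vessels. It was 26.1, 18.6, 15 and 18.2 CPM in female replicates 1 to 4, 8.12, 4.42 and 6.88 CPM in male replicates 2 to 4, with 12.1 CPM in male replicate 1, with a log2 fold change of -1.61 (SE 0.29, edgeR adjusted p = 0.0457). With 1 sample left out the adjusted p from edgeR was between 0.0643 and 0.132, so the call rests on all 7 samples. *Adgrl4*, named with the latrophilins but without their lectin domain and abundant in endothelial cells, had the highest mean of this list. It was 57.0 to 70.2 CPM in females and 78.3 to 127 CPM in male replicates 2 to 4, without overlap (log2 fold change 0.69, SE 0.19, edgeR adjusted p = 0.108). The summed endothelial markers were 408 to 529 CPM in females and 413 to 550 CPM in those males.

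**Figure D5:**
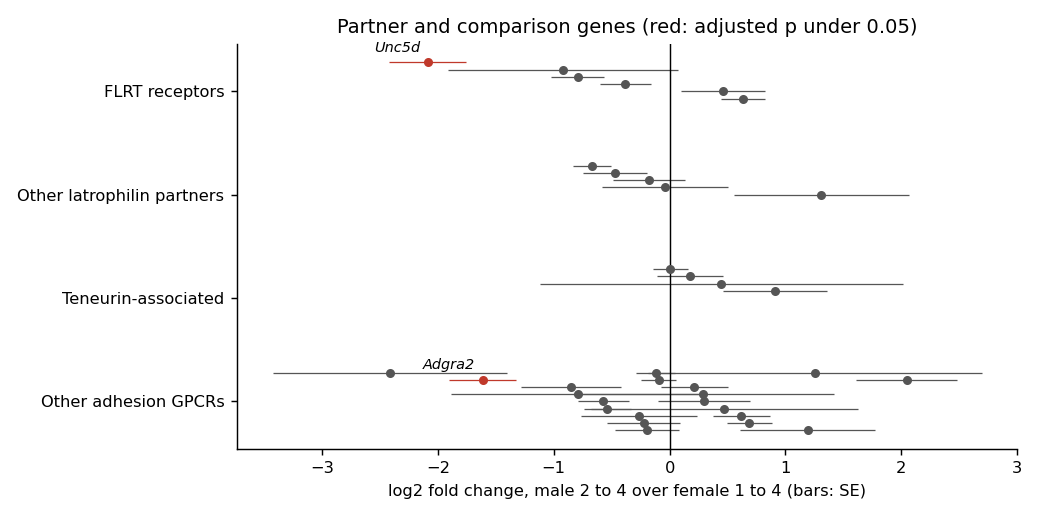
Log2 fold change, male replicates 2 to 4 over female replicates 1 to 4, of the tested genes of 4 partner and comparison lists, with bars for the SE. Genes past the threshold in edgeR are in red and named, *Unc5d* at -2.09 and *Adgra2* at -1.61.

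Counts are uncertain in exons shared with a gene on the other strand, since featureCounts at its default settings does not use the strand and leaves reads that overlap 2 annotated genes unassigned. In GENCODE the exons of *Adgrl3* overlap the antisense gene *Gm16054* over 1582 bases, those of *Tenm1* overlap *Sh2d1a* over 1465, those of *Adgrl1* overlap *Gm10644* over 1107 and those of *Tenm4* overlap *C230038L03Rik* over 988. The overlaps of *Adgrl2* and *Tenm3* are 202 and 114 bases. *Tenm2*, *Flrt1*, *Flrt2* and *Flrt3* share no exon with another gene in GENCODE. The release used for the counts is not given and many entries carry names of a transcript assembly, so the overlaps counted may differ.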

How the data were processed

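Pituitary cells of Ad4BP-BAC-EGFP mice were sorted for EGFP, and libraries were made with a kit for low RNA input. The authors trimmed reads with cutadapt, mapped them to mm10 with STAR and counted them per gene with featureCounts, at default settings, and deposited raw counts per gene in 1 table. The default counting does not use the strand. The annotation release is not given in the sources used here. Many entries carry names of a transcript assembly, which the methods do not mention. Without molecular identifiers, PCR copies enter the counts.

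Counts of male replicates 2 to 4 and female replicates 1 to 4 were compared with edgeR 4.0.16 in R 4.3.3 (TMM factors, filterByExpr, quasi-likelihood test, Benjamini-Hochberg adjustment over all 20152 genes tested, threshold 0.05). The SE was the absolute log2 fold change divided by the square root of F. CPM used TMM factors over all 8 samples, and lengths were the joined exons in GENCODE for GRCm38. DESeq2 1.42.0 was an alternative, with upper-quartile scaling, library size alone, other filters, all 8 samples, a replicate block, robust dispersion and leaving out each sample. The labels do not say that samples came from separate animals, so a p-value measures the spread between these samples. Samples of 1 sex differed by more than counting noise alone, and each was counted as a sample. The chi-square per gene was 101.4 to 176 between the samples compared and 399 to 415.3 in pairs with male replicate 1. Whether repeat libraries of the same RNA would differ as much was not tested.

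The named genes are the 10 members, partner genes past the threshold, the gene with the highest mean in each partner list (some are not reported here), the marker genes, and the 3 genes nearest in profile to the most abundant member of each family. Members and lists were chosen with earlier results of these data known. Figures were drawn in Python 3.11.15 with matplotlib 3.10.9.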

Additional observations from a re-analysis of the deposited data

Results flagged for a closer look

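In groups of 4 samples, the members were searched for a highest or lowest sample that stood far from the other 3 by Dixon's criterion. Of 20 groups examined, 2 had such a sample, where chance alone gives about 1 in 20. *Tenm2* was at 88.6 CPM in female replicate 3, against 79.1 to 80.5 CPM in the other females, a gap that is small beside the difference between the sexes. *Adgrl1* was at 143 CPM in male replicate 1, where the other males had 86.8 to 96.1 CPM.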

How the results depend on the processing

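Of 149 log2 fold changes of members under an alternative, 130 kept their direction and side of the threshold. *Tenm2* was between -3.89 and -3.58 in 15 alternatives and past the threshold in 14, with adjusted p of 0.00196 to 0.00572 in edgeR when 1 sample was left out. The count of all genes past the threshold was 471, and it became 2329 with DESeq2, 808 with library size alone, 177 with no filter, 67 with all 8 samples and 88 to 171 with 1 sample left out. With library size alone all genes had a median log2 fold change of -0.24, and the share of calls higher in males fell to 16.5% from 42.0%. Members past the threshold were 1, and 3 with DESeq2 (where 11.7% of all genes passed) and with library size alone, which added *Tenm3* (adjusted p = 0.00849 and 0.0458) and *Adgrl3* (0.00619 and 0.0412). Genes past it in the 5 partner and comparison lists together, 1 of them not reported here, were 2, and 7 with DESeq2, 0 with no filter, 0 with all 8 samples and 0 to 1 with 1 sample left out (without male replicate 4, from the list not reported). For this count the filter, the replicate block and the leaving-out were chosen after seeing the data. The mean of *Tenm2* in females was 87.8 CPM with library size alone, and that of *Adgrl1* in males 82.8 CPM, or 104 CPM over all 4 males. With all 8 samples the sign turned for *Tenm4* (0.16), *Adgrl1* (0.12) and *Flrt2* (0.038). Leaving out 1 sample, *Tenm4* ran from -1.62 to 0.39, *Adgrl2* from -0.17 to 0.44 and *Flrt2* from -0.33 to 0.16. The cause was not tested.

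Same-numbered samples of the sexes did not deviate together (correlations -0.02, -0.01 and -0.00023 across genes), so the numbers were not taken as pairs. With the replicate block, 0 genes, 0 members and 0 genes of those lists passed in edgeR (2954 genes and 5 members at an unadjusted p under 0.05), *Tenm2* was at -3.69 (adjusted p = 0.145), and the sign turned for *Tenm4* (0.082), *Adgrl2* (-0.19) and *Flrt2* (0.045). *Tenm1* gave no value with at least 10 counts in every sample, since it did not reach that filter.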
